A study of Mus musculus with 2 samples.

Results

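Nuclear-encoded oxidative phosphorylation genes were described in RM-1 tumours of mice, library by library and complex by complex. RM-1 is a mouse prostate cancer cell line, and its tumours were grown under the skin of C57BL/6 mice. The members were all genes whose symbol starts with Nduf, Uqcr, Atp5, Cox4 to Cox8 or Sdh, without pseudogene symbols, that reached 10 CPM (UMIs, which count transcript molecules, scaled to a total of 1000000) in the pooled tumour cells. Of 55357 features in the files, 104 matched these symbols and 89 of them reached that level. They comprised 37 subunits of complex I, 4 of complex II, 8 of complex III, 11 of complex IV, 17 of complex V, 11 assembly factors of complexes I and II, and the supercomplex factor Cox7a2l. One library came from tumours treated with RP-6306, a small-molecule inhibitor of the kinase PKMYT1, and the other from tumours given vehicle, both collected on day 10 of treatment and both labelled as wild type. The labels leave unclear how many animals were pooled. With 1 library per treatment, no difference between treatments could be tested. Ratios of RP-6306 over vehicle therefore carry 95% intervals that cover counting error only, and "higher" and "lower" compare these 2 libraries.

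Oxidative phosphorylation makes ATP in the inner mitochondrial membrane. Complexes I and II pass electrons from NADH and succinate to ubiquinone, complex III passes them on to cytochrome c and complex IV to oxygen, and complex V uses the resulting proton gradient to make ATP. Most subunits are encoded in the nucleus and imported, while the mitochondrial genome encodes a small core of complexes I, III, IV and V and none of complex II.

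The RP-6306 library held 10512 barcodes with 106465655 UMIs and the vehicle library 9686 barcodes with 100815022 UMIs, and 34 barcode sequences occurred in both. Tumour cells were gated by keratin UMIs (Krt8 and Krt18) with at most 1 leukocyte UMI, and numbered 7825 in the RP-6306 library and 7470 in the vehicle library, with median depths of 10325 and 10305.5 UMIs. Macrophages were gated by Lyz2, with at most 1 keratin UMI and with a UMI of a complement C1q gene, Csf1r or Adgre1. They numbered 305 in the RP-6306 library and 286 in the vehicle library, with median depths of 4285 and 4611 UMIs. The summed macrophage markers stood at 29.6 CPM in RP-6306 and 31.5 CPM in vehicle tumour cells, and at 14346 CPM in RP-6306 and 13920.1 CPM in vehicle macrophages. This list includes the gate genes Lyz2, C1qa, C1qb, C1qc, Csf1r and Adgre1, so the gates largely set that contrast. Of the markers outside the gates, Mrc1 stood at 469 and 432 CPM in RP-6306 and vehicle macrophages, and Cd68 at 270 and 319 CPM. Fcgr1 stood at 133 and 91.9 CPM there, and Ms4a7 at 79.2 and 61.8 CPM. In RP-6306 and vehicle tumour cells Cd68 stood at 12.2 and 15.2 CPM and Mrc1 at 0.821 and 0.707 CPM, with Fcgr1 and Ms4a7 lower still. Epithelial markers of the tumour cells were only partly present. Beyond the gating keratins, Krt19, Sox9 and Barx2 were present, but Epcam stood at 3.64 and 3.30 CPM, and Cdh1, Cldn4 and Krt7 were near 0. The fibroblast list summed to 855 CPM in RP-6306 and 776 CPM in vehicle. Most of that sum was Col3a1 (634 CPM in RP-6306 and 573 CPM in vehicle) and Col1a1 (187 and 168 CPM). Col1a2, Dcn, Lum and Pdgfrb each stood at 24.8 CPM or less.

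Promoter stretches of 5 members named in later results are given first, as examples with a motif match near the start. Each covers 100 bases up to the annotated gene start, read 5′ to 3′ on the gene's strand, from RefSeq on GRCm38.p6. Capitals mark matches on either strand to GCGCANGCG, which includes the NRF1 motif GCGCATGCG, or to the ETS motif CCGGAAG, whose reverse complement is CTTCCGG. Where 2 matches overlap, on opposite strands, the capitals run over both.
Ndufa11 (chr17:56717662-56717761, + strand): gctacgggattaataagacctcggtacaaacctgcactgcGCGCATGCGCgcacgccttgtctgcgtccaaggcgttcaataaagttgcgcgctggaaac
Sdhd (chr9:50603850-50603949, - strand): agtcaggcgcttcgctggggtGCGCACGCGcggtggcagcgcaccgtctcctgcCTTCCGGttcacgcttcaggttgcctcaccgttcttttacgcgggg
Uqcrh (chr4:116075071-116075170, - strand): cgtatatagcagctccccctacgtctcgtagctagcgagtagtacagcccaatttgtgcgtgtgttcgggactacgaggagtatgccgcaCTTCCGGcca
Cox6a1 (chr5:115348959-115349058, - strand): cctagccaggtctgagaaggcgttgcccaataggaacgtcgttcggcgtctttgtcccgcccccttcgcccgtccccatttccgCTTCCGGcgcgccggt
Atp5k (chr5:108434400-108434499, - strand): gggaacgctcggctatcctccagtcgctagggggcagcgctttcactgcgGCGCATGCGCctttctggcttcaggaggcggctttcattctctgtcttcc
Windows of 300 bases (250 before and 50 after the start) were found for 76 of the 89 members. NRF1 is a transcription factor known for binding promoters of respiratory genes, and its motif GCGCATGCG occurred in 9 of the 76 windows (11.8%), against 1.95% of the windows of 27025 genes. With a free base in its middle (GCGCANGCG) it occurred in 23 members (30.3%), against 7.03% of all genes. The ETS motif CCGGAAG, the kind bound by GABP, occurred in 22 members (28.9%), against 9.93%. The YY1 motif AANATGGCG was found in 12 members (15.8%), against 2.76%, and the ERR motif TCAAGGTCA in 2 (2.63%), against 0.466%. Both strands were searched, genes with the exact NRF1 motif are also counted for the looser one, and a match is not evidence of binding.

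The members were abundant as a group in both cell groups. They summed to 18522 CPM in RP-6306 tumour cells and 18910.5 CPM in vehicle tumour cells, or 1.85% and 1.89% of all UMIs. In RP-6306 and vehicle macrophages the sums were 20666 and 20360.2 CPM. A median RP-6306 tumour cell carried UMIs of 61 of the 89 members and a median vehicle tumour cell of 62, against 44 and 45 in the shallower macrophages. The libraries count the 3′ end of each transcript, so levels are not divided by gene length. Complexes I, IV and V each summed to 5074 CPM or more in tumour cells, complex III to 2099 and 2140.4 CPM, and complex II to 302 and 325 CPM in the RP-6306 and vehicle libraries.

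**Figure D1:**
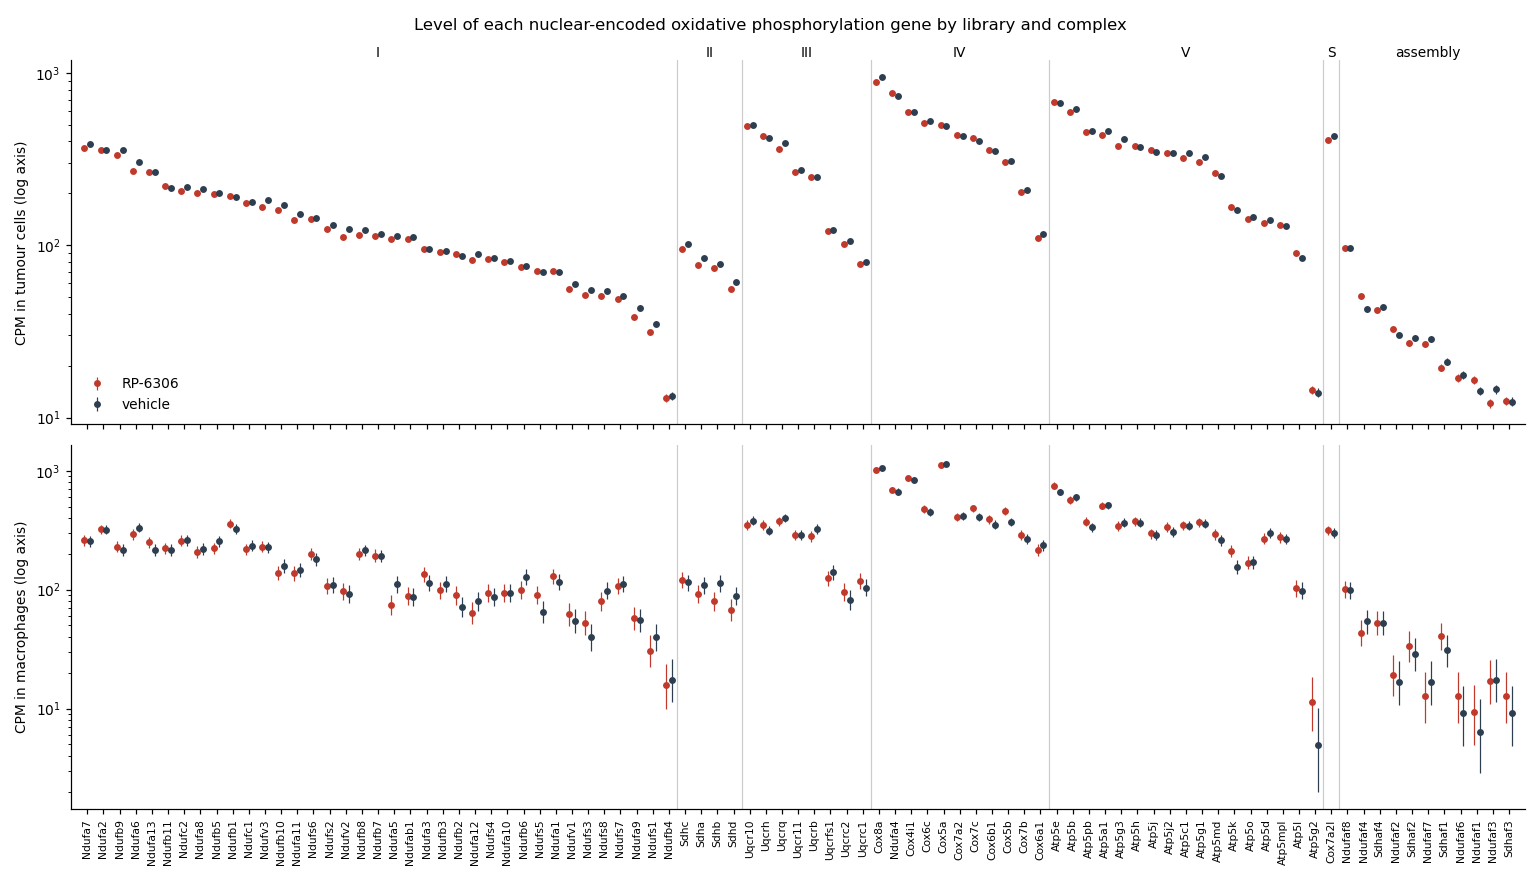
Level of each member in tumour cells (upper panel) and macrophages (lower panel), in CPM on a log axis, with RP-6306 in red and vehicle in dark blue. Columns I to V are the complexes, S is Cox7a2l, and bars are 95% Poisson intervals. The complex IV subunits Cox8a and Ndufa4 are the most abundant members in tumour cells, and Cox5a stands higher in macrophages than in tumour cells.

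Within complex I the most abundant member in tumour cells was Ndufa7, an accessory subunit, at 365 CPM in the RP-6306 library, against 385 CPM in the vehicle library. Among the 7 nuclear-encoded core subunits, which carry the electron path, levels were lower, and Ndufs1 stood at 31.2 CPM in RP-6306 and 35.0 CPM in vehicle. In complex II, Sdhc, a membrane anchor, led at 95.4 CPM in RP-6306 and 102 CPM in vehicle, and the catalytic Sdha stood at 76.7 CPM in RP-6306 and 83.8 CPM in vehicle. Uqcr10, a small subunit, led complex III at 488 CPM in RP-6306 and 497 CPM in vehicle. Cox8a, the ubiquitous form of a small complex IV subunit, was the most abundant member at 886 CPM in RP-6306 and 941 CPM in vehicle, followed by Ndufa4, named for complex I but now placed in complex IV, at 767 CPM in RP-6306 and 735 CPM in vehicle. In complex V the epsilon subunit Atp5e led at 678 CPM in RP-6306 and 666 CPM in vehicle. Assembly factors stood below 100 CPM, led by Ndufaf8 at 96.7 CPM in RP-6306 and 96.3 CPM in vehicle.

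The isoforms present were the ubiquitous ones. Cox4i1 stood at 589 CPM in RP-6306 and 594 CPM in vehicle, Cox6b1 at 358 CPM in RP-6306 and 350.0 CPM in vehicle, Cox7a2 at 434 CPM in RP-6306 and 433 CPM in vehicle, Cox7b at 204 CPM in RP-6306 and 208 CPM in vehicle and Cox6a1 at 109.9 CPM in RP-6306 and 116 CPM in vehicle. The muscle or testis forms Cox6a2, Cox7a1, Cox8b, Cox6b2, Cox7b2 and Cox8c were all below the 10 CPM minimum, at most 1.94 and 2.38 CPM (Cox7a1). The same c subunit of complex V is made from 3 genes, of which Atp5g3 (378 CPM in RP-6306 and 415 CPM in vehicle) and Atp5g1 (302 CPM in RP-6306 and 323 CPM in vehicle) far outnumbered Atp5g2 (14.5 CPM in RP-6306 and 14 CPM in vehicle). In all, 15 matching rows lay below the minimum, 4 of them without a UMI in tumour cells, and none reached 10 CPM in macrophages of either library. The nearest to the threshold was Ndufaf5 at 5.91 pooled CPM, and the lowest members were Sdhaf3, Ndufb4 and Ndufaf3 at 12.4, 13.2 and 13.3 pooled CPM.

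In tumour cells the members stood nearly level between the libraries. The ratio of their sums, RP-6306 over vehicle, was 0.979 (0.977 to 0.982). The median log2 ratio of the members was -0.03, against -0.03 over 7827 genes of at least 10 CPM and 100 UMIs. Of the 89 members, 62 were lower and 27 higher in RP-6306 cells, where 4614 of the 7827 genes were lower and 3213 higher. Counting intervals lay below 1 for 42 of 89 (47.2%) and above 1 for 13 (14.6%), where 37.6% and 22.1% of the 7827 genes did so. Only 1 of the 89 members (1.12%) differed by 1.2-fold or more, against 8.36% of the 7827 genes (2.81% higher and 5.54% lower). That member was Ndufaf3, a complex I assembly factor, at 12.1 CPM in the RP-6306 library, against 14.6 CPM in the vehicle library, a log2 ratio of -0.27 (-0.39 to -0.15). With per-cell means, or without mitochondrial and ribosomal genes in the total, none of the 89 was past the limit. The highest ratio was that of its assembly partner Ndufaf4, at 50.4 CPM in the RP-6306 library, against 42.5 CPM in the vehicle library, a log2 ratio of 0.25 (0.19 to 0.31), just inside the 1.2-fold limit.

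The members of complexes I and II stood slightly lower in RP-6306 tumour cells. All 4 subunits of complex II were lower in RP-6306 tumour cells, each with an interval below 1, where 37.6% of the 7827 genes had one. The sum of these 4 subunits had a log2 ratio of -0.11 (-0.13 to -0.08). The lowest was Sdhd, a membrane anchor, at 55.7 CPM in RP-6306 and 61.0 CPM in vehicle, and the highest Sdhb, the iron-sulphur subunit, at 74.1 CPM in RP-6306 and 77.9 CPM in vehicle. All 7 nuclear-encoded core subunits of complex I were lower as well, 6 with intervals below 1. They summed to 475 CPM in RP-6306 cells and 510.3 CPM in vehicle cells, a log2 ratio of -0.10. Of the 30 accessory subunits of complex I, 23 were lower and 7 higher, where 4614 of the 7827 genes were lower. Over all 37 complex I members, intervals lay below 1 for 18 (48.6%), against 37.6% of the 7827 genes. The lowest complex I ratio was that of Ndufa9, an accessory subunit beside the quinone site, at 38.5 CPM in RP-6306 and 43.4 CPM in vehicle, and the highest that of Ndufb2 at 88.9 CPM in RP-6306 and 86.6 CPM in vehicle. None of the 37 complex I and 4 complex II members reached the 1.2-fold limit.

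Complexes III, IV and V were closer to level, with log2 ratios of their sums of -0.03, -0.01 and -0.02. The sign for complex IV depended on the scaling: it was 0.01 with TMM, edgeR's trimmed-mean scaling. In complex III, Uqcrq, a ubiquinone-binding subunit, was lowest at 362 CPM in RP-6306 and 393 CPM in vehicle, and the hinge subunit Uqcrh highest at 431 CPM in RP-6306 and 418 CPM in vehicle. In complex IV, Cox8a had the lowest log2 ratio, -0.09 (-0.10 to -0.07), and Ndufa4 the highest, 0.06 (0.05 to 0.08). In complex V, Atp5g3 had the lowest, -0.13 (-0.16 to -0.11), and Atp5l, the g subunit that helps ATP synthase form dimers, the highest, 0.11 (0.06 to 0.15). Of the other c-subunit genes, Atp5g1 had a log2 ratio of -0.09 (-0.12 to -0.07) and Atp5g2 of 0.06 (-0.05 to 0.17). Cox7a2l, known as a factor of supercomplexes of complexes III and IV, stood at 409.6 CPM in RP-6306 and 428 CPM in vehicle. Its function in these tumours was not measured.

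**Figure D2:**
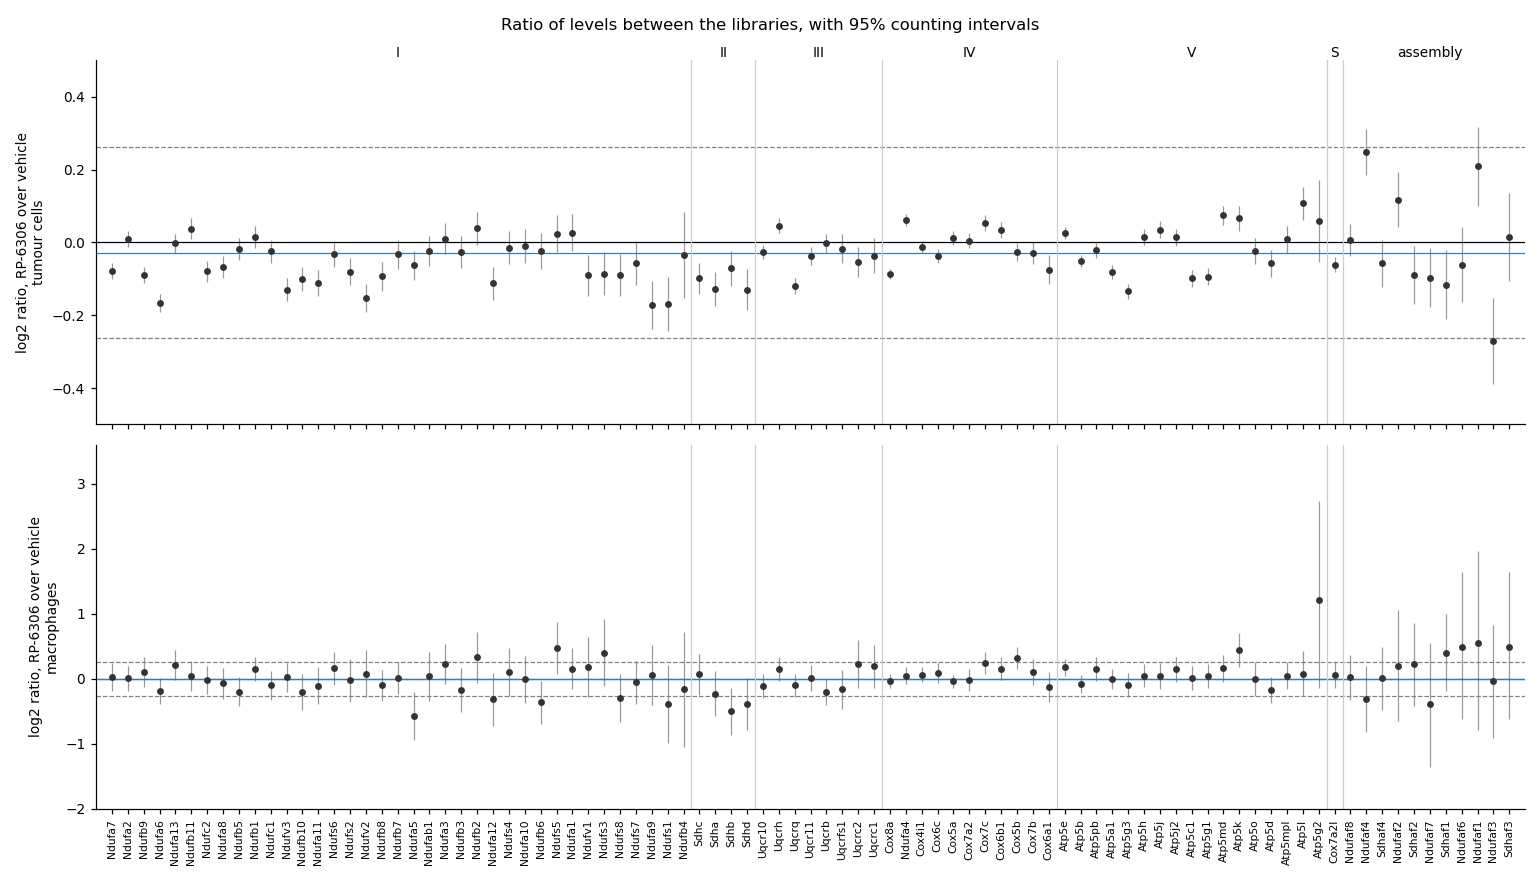
Log2 ratio of RP-6306 over vehicle for each member in tumour cells (upper panel) and macrophages (lower panel), with 95% counting intervals. Dashed lines mark 1.2-fold and the blue line the median of all genes of at least 10 CPM and 100 UMIs. In tumour cells 1 of 89 members lies past a dashed line, and in macrophages intervals are several times wider.

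The score lists measured beside the members differed more between the libraries. Of all 7827 genes of at least 10 CPM and 100 UMIs, 4614 were lower in RP-6306 tumour cells. The G2/M list of 30 mitotic genes was lower in RP-6306 tumour cells for 30 of 30 genes, and its sum was 2198 CPM against 2731 CPM in vehicle tumour cells. The hypoxia and glycolysis list had 20 of 23 genes with enough UMIs lower, and summed to 8316 against 9265 CPM. Their part in the members' small differences was not tested. Ndufa4l2, a hypoxia-induced relative of Ndufa4 that fell below the member minimum, had 140 UMIs in RP-6306 and 283 UMIs in vehicle tumour cells, or 1.53 and 3.23 CPM, a log2 ratio of -1.08.

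In macrophages the sums also stood close, with a ratio of 1.02 (0.999 to 1.03), RP-6306 over vehicle. Of the 89 members, 80 had 100 or more UMIs over both libraries. Among those 80, 6 were higher and 8 lower by 1.2-fold or more (17.5%), where 27.4% of 4035 genes were past that limit (13% higher and 14.4% lower). Counting intervals excluded 1 for 9 of the 80 members, 5 above and 4 below, against 8.03% and 8.13% of the 4035 genes.

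The members past 1.2-fold that were higher in RP-6306 macrophages were Ndufs5, Atp5k, Ndufs3, Sdhaf1, Ndufb2 and Cox5b. Cox5b, a nuclear subunit of complex IV, stood at 461 CPM in the RP-6306 library, against 371 CPM in the vehicle library, and Atp5k, the e subunit of ATP synthase, at 213 CPM in RP-6306 and 156 CPM in vehicle. The corresponding log2 ratios were 0.31 (0.14 to 0.48) and 0.44 (0.19 to 0.70). The members that were lower were Ndufa5, Sdhb, Ndufs1, Sdhd, Ndufb6, Ndufa12, Ndufaf4 and Ndufs8. Counting intervals did not exclude equal levels for Ndufs3, Sdhaf1 and Ndufb2 of the higher members. The same held for Ndufs1, Sdhd, Ndufa12, Ndufaf4 and Ndufs8 of the lower ones. Ndufa5, an accessory subunit of the peripheral arm of complex I, stood at 74.9 CPM in the RP-6306 library, against 111 CPM in the vehicle library, a log2 ratio of -0.57 (-0.94 to -0.20). Complex II summed to 361 CPM in RP-6306 macrophages and 425 CPM in vehicle macrophages, a ratio of 0.849 (0.753 to 0.957), with 3 of 4 subunits lower. Summed neutrophil markers in the macrophage gate were 867 CPM in the RP-6306 and 574 CPM in the vehicle library, and fibroblast markers 87.8 and 272 CPM. Of the neutrophil markers Mmp9 alone was lower in RP-6306, at 332 CPM against 551 CPM in vehicle. S100a8 stood at 275 CPM in RP-6306 and 14.7 CPM in vehicle, and S100a9 at 220 and 0 CPM. In the RP-6306 library 5 macrophages held 683 of the 695 S100a8 and S100a9 UMIs. Leaving out cells with 3 or more S100a8 and S100a9 UMIs, an alternative added after seeing the data, left the summed log2 ratio at 0.02. The part of the fibroblast markers was not tested.

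Relative to macrophages, tumour cells held less of 32 members and more of 14. Summed counts of tumour cells and macrophages were compared with edgeR's quasi-likelihood test with library as a block, so that a call rests on both libraries, and p-values were adjusted by Benjamini-Hochberg over all 16599 genes tested. These p-values rest on only 2 libraries, which also differ in treatment. With so few sums, the test pools its estimate of spread over genes, so small p-values do not show replication between animals. The same holds for the later comparisons within tumour cells. Of the 89 members, 14 (15.7%) were higher and 32 (36%) lower in tumour cells, where 26.9% of all genes tested were higher and 20.4% lower. Among genes of at least 10 CPM in tumour cells, which all members are by their choice, 44.3% were higher and 20.7% lower. The median log2 change was -0.12 for the members and 0.28 for those genes. With DESeq2, 6 members were higher and 26 lower. All levels are relative to the UMI total of each cell group, so the comparison says nothing about RNA per cell.

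The members that fell most in tumour cells were spread over complexes I, IV and V. Cox5a, a complex IV subunit encoded on chromosome 9 (57521274 to 57532426, GRCm38), had 495 and 491 CPM in tumour cells of the RP-6306 and vehicle libraries, and 1117 and 1147 CPM in macrophages (log2 change -1.21 ± 0.07, adjusted p = 5.5e-17, edgeR). In both libraries Cox5a was the most abundant member of macrophages, above Cox8a. Ndufs7, the core complex I subunit next to the quinone site, had 48.6 and 50.5 CPM in tumour cells of the RP-6306 and vehicle libraries, and 108 and 112 CPM in macrophages (log2 change -1.16 ± 0.11, adjusted p = 1.5e-10, edgeR). Atp5mpl, a small membrane subunit of ATP synthase, and Atp5d, the delta subunit of its stalk, had log2 changes of -1.07 and -1.06. Cox6a1, whose promoter is printed above, had 109.9 and 116 CPM in tumour cells of the RP-6306 and vehicle libraries, and 216 and 236 CPM in macrophages (log2 change -1.02 ± 0.09, adjusted p = 2e-11, edgeR). Complex IV had 6 of 11 subunits lower, while the other 5 did not pass, and complex II all 4 lower, with log2 changes of -0.43 for Sdhd, -0.35 for Sdhb, -0.34 for Sdha and -0.27 for Sdhc. Complex I had 14 lower and 4 higher of 37, complex III 2 lower and 2 higher of 8, and complex V 5 lower and 3 higher of 17.

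Of the 14 members higher in tumour cells, 3 stood under the 10 CPM minimum in at least 1 macrophage library and were members only through their tumour-cell level. These were Ndufaf1, Ndufaf6 and Atp5g2, and their values are a description. Ndufaf1, which helps build the membrane arm of complex I, had 16.5 and 14.3 CPM in tumour cells of the RP-6306 and vehicle libraries, and 9.28 and 6.32 CPM in macrophages. The c-subunit gene Atp5g2 had 16 UMIs in RP-6306 and 7 UMIs in vehicle macrophages. Of the other assembly factors, Ndufaf7, a methyltransferase acting on a core subunit, rose by 0.88 on the log2 scale and Ndufaf2 by 0.79 with edgeR, on at most 27 UMIs in a macrophage library. Neither passed with DESeq2 (adjusted p = 0.0667 and 0.0742), and Sdhaf1 was lower. Members with more UMIs that were higher included Ndufb9 (0.62) and Ndufa7 (0.53) of complex I, Uqcr10 (0.42) of complex III and Cox7a2l (0.42). Cox4i2, the hypoxia-regulated isoform of Cox4i1 and no member, had 12 and 17 UMIs in RP-6306 and vehicle tumour cells, and 9 and 9 UMIs in the much smaller macrophage sums (log2 change -5.29 ± 0.75, adjusted p = 3.4e-07, edgeR).

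**Figure D3:**
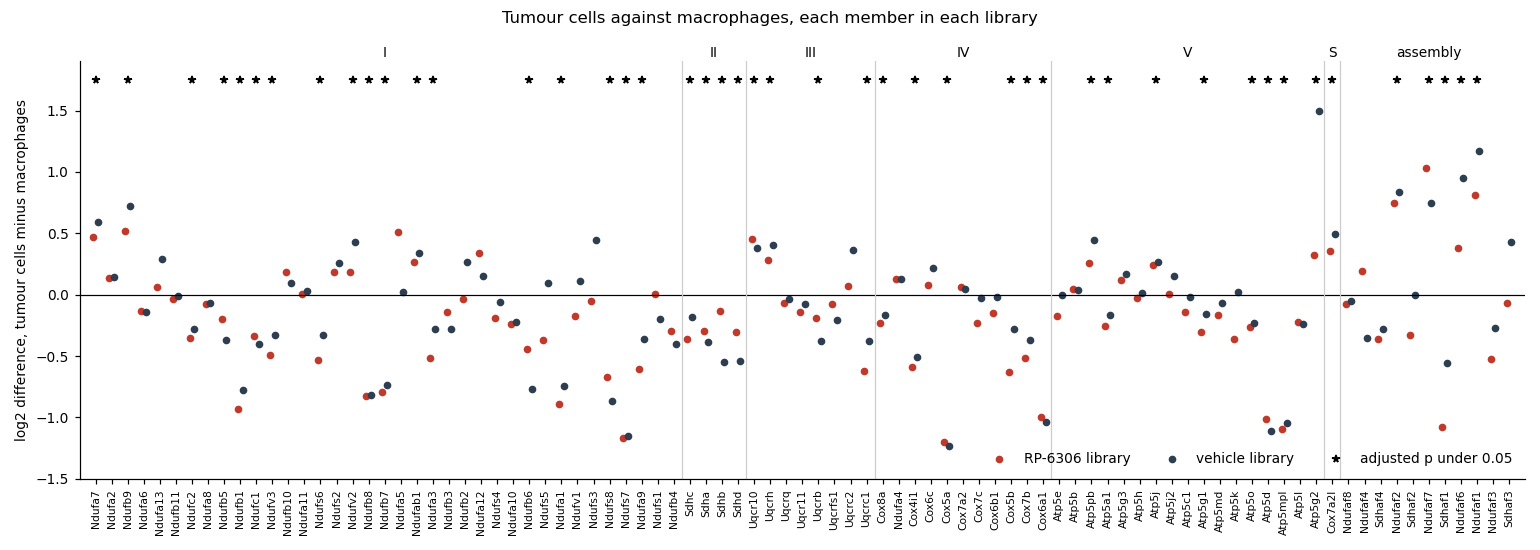
Log2 difference, tumour cells minus macrophages, for each member in the RP-6306 library (red) and the vehicle library (dark blue), on edgeR's scaled totals. Stars mark an edgeR adjusted p under 0.05 (14 higher, 32 lower), and the points of both libraries lie close together for the abundant members such as Cox5a.

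Tumour cells were next compared among themselves, between the highest and the lowest 25% of cells ranked by the share of UMIs in the hypoxia and glycolysis list, within each library. They are called hypoxia-high and hypoxia-low cells, 1956 of each for RP-6306 and 1867 of each for vehicle, and are ranges of a score, not cell types. With edgeR, 26 of 89 members (29.2%) were higher and 6 (6.74%) lower in hypoxia-high cells, against 22.3% and 19.1% of all genes tested and 31.6% and 20.8% of genes of at least 10 CPM. The direction of the group as a whole depended on the scaling. With totals in place of TMM, an alternative added after seeing the data, 5 members were higher and 28 lower, where 13.5% of all genes tested were higher and 32.4% lower (17.8% and 38.1% of genes of at least 10 CPM), and the members' median log2 change was -0.09 in place of 0.06. On that scale summed members stood at 17773 and 18429 CPM in hypoxia-high cells of the RP-6306 and vehicle libraries and at 18568 and 18959 CPM in hypoxia-low cells. TMM raised the members' log2 changes by 0.14 (median) over plain CPM, and DESeq2 called 5 members higher and 2 lower. The members named next passed in the same direction under both scalings.

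Ndufv3, an accessory subunit at the NADH-binding end of complex I, encoded on chromosome 17 (31520115 to 31531331, GRCm38), had 207 and 232 CPM in hypoxia-high cells of the RP-6306 and vehicle libraries, and 146 and 148 CPM in hypoxia-low cells (log2 change 0.72 ± 0.06, adjusted p = 1.1e-11, edgeR). Uqcrq of complex III had 423 and 437 CPM in hypoxia-high cells of the RP-6306 and vehicle libraries, and 279.9 and 330.1 CPM in hypoxia-low cells (log2 change 0.64 ± 0.05, adjusted p = 1.8e-11, edgeR). For both genes the hypoxia-high cells stood above the hypoxia-low cells in each library. Ndufa6, which docks the acyl carrier protein onto complex I, rose by 0.38 on the log2 scale, Ndufa9 by 0.33 and Cox7a2l by 0.26. Ndufa4 of complex IV had 625 and 619 CPM in hypoxia-high cells of the RP-6306 and vehicle libraries, and 838 and 805 CPM in hypoxia-low cells (log2 change -0.26 ± 0.04, adjusted p = 7.9e-06, edgeR), and was thus lower in hypoxia-high cells of both libraries. Its relative Ndufa4l2, no member, had 2.74 and 6.70 CPM in hypoxia-high cells of the RP-6306 and vehicle libraries, and 1.10 and 1.02 CPM in hypoxia-low cells (log2 change 2.25 ± 0.26, adjusted p = 3.3e-08, edgeR). The assembly factors Ndufaf2 and Sdhaf4, a chaperone of Sdha, had log2 changes of -0.43 and -0.27. Ndufa5 and the membrane-arm subunit Ndufb10 had log2 changes of -0.21 and -0.15, and both were lost with DESeq2 (adjusted p = 0.15 and 0.289), as were Ndufa9 and Sdhaf4. All 30 genes of the G2/M list were lower in hypoxia-high cells, and the part of cell cycle stage in these differences was not tested.

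In G2/M-high cells (the highest 25% by the share of UMIs in the G2/M list), 51 of 89 members (57.3%) were higher and 9 (10.1%) lower than in G2/M-low cells (the lowest 25%) with edgeR, against 25.5% and 25.9% of all genes tested and 35.5% and 31.4% of genes of at least 10 CPM. The median log2 change was 0.14 for the members and 0.02 for the genes of at least 10 CPM. Summed members stood at 19290.0 and 19618 CPM in G2/M-high cells of the RP-6306 and vehicle libraries and at 17517.5 and 17792 CPM in G2/M-low cells, so both libraries showed the same direction. Median depth differed too, at 13973 and 14262 UMIs in G2/M-high cells and 8747.5 and 8288 UMIs in G2/M-low cells. With scores from cells thinned to 2000 UMIs the median log2 change was 0.13. DESeq2 called 36 members higher and 4 lower. By complex, 22 of 37 subunits of complex I, 2 of 4 of complex II, 5 of 8 of complex III, 6 of 11 of complex IV, 11 of 17 of complex V and 5 of 11 assembly factors were higher.

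Cox5a had 584 and 576 CPM in G2/M-high cells of the RP-6306 and vehicle libraries, and 414 and 396 CPM in G2/M-low cells (log2 change 0.49 ± 0.04, adjusted p = 6.4e-39, edgeR). Ndufa4 had 870.3 and 828 CPM in G2/M-high cells of the RP-6306 and vehicle libraries, and 653 and 602 CPM in G2/M-low cells (log2 change 0.41 ± 0.03, adjusted p = 1.1e-31, edgeR). For both genes the G2/M-high cells of either library lay above the G2/M-low cells of both. The assembly factors Ndufaf6, Ndufaf2 and Ndufaf4 rose by 0.68, 0.64 and 0.48 on the log2 scale, and Ndufa5 by 0.48. Of the members whose promoters are printed above, Sdhd rose by 0.33, Atp5k by 0.22 and Cox6a1 by 0.13, Uqcrh fell, and Ndufa11 did not pass the test.

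Against this direction, 9 members were lower in G2/M-high cells. Ndufa6 had 217 and 247 CPM in G2/M-high cells of the RP-6306 and vehicle libraries, and 319 and 360.5 CPM in G2/M-low cells (log2 change -0.58 ± 0.04, adjusted p = 2.2e-43, edgeR), and Ndufv3 had 138 and 150.0 CPM in G2/M-high cells of the RP-6306 and vehicle libraries, and 184 and 206 CPM in G2/M-low cells (log2 change -0.46 ± 0.05, adjusted p = 7.5e-23, edgeR). Cox7a2l fell by 0.40 on the log2 scale and Uqcrh by 0.33. Ndufa6, Ndufv3 and Cox7a2l are also among the genes that rose in hypoxia-high cells, but the 2 splits use the same tumour cells, and the hypoxia list had 20 of 23 genes lower in G2/M-high cells. Sdhaf4 fell by 0.15, a call lost with DESeq2 (adjusted p = 0.505).

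**Figure D4:**
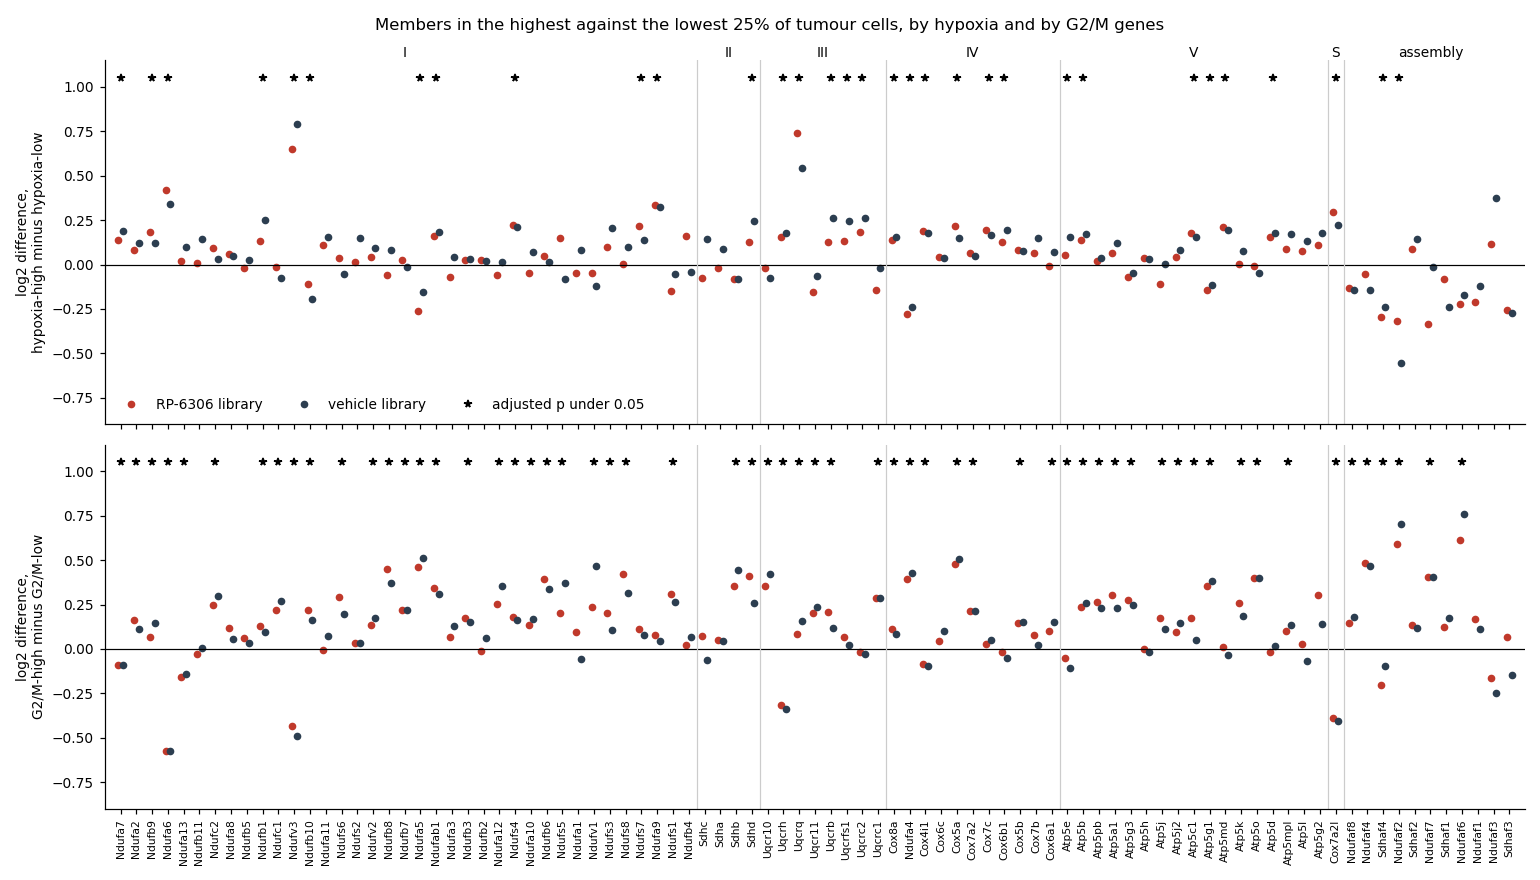
Log2 differences of each member between the highest and the lowest 25% of tumour cells by hypoxia and glycolysis genes (upper panel) and by G2/M genes (lower panel), in the RP-6306 library (red) and the vehicle library (dark blue), on TMM-scaled totals. Stars mark an edgeR adjusted p under 0.05. Ndufa6, Ndufv3 and Cox7a2l lie above 0 in the upper panel and below 0 in the lower one.

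Other mitochondrial lists were counted in the same G2/M fit. Of 76 mitochondrial ribosomal protein genes 66 were higher in G2/M-high cells and the other 10 did not pass, and of 13 tricarboxylic acid cycle genes 11 were higher and the other 2 did not pass. Of 38 other oxidative phosphorylation factors (cytochrome c, its complex III partner Cyc1, and chaperones of complexes I, III, IV and V), 16 were higher and 6 lower. Of 16 tested regulators of mitochondrial gene expression, 9 were higher and 3 lower. Of 85 cytosolic ribosomal protein genes, 63 were lower and 8 higher.

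The 13 mitochondrially encoded subunits were set beside the nuclear members. Between the libraries their sum was 10624 CPM in RP-6306 and 10284 CPM in vehicle tumour cells, a ratio of 1.03 (1.03 to 1.04), where the nuclear members' ratio was 0.979. The most abundant was mt-Cytb, the mitochondrial subunit of complex III, at 4343 CPM in the RP-6306 library, against 3910.0 CPM in the vehicle library, and without it (left out after seeing the data) the sum of the other 12 was 6281 CPM in RP-6306 and 6374 CPM in vehicle tumour cells, a ratio of 0.985. In all, 6 of the 13 were higher and 7 lower in RP-6306 tumour cells. Past 1.2-fold were 2 of the 13 (15.4%), against 8.36% of 7827 genes of at least 10 CPM and 100 UMIs. These were mt-Nd4l, higher at a log2 ratio of 0.41, and mt-Nd6, lower at -0.34. In macrophages the sum was 7619 CPM in the RP-6306 and 7797 CPM in the vehicle library, a ratio of 0.977 (0.951 to 1.0). Set against the nuclear members, the mitochondrial sum was 0.574 times as large in RP-6306 and 0.544 times in vehicle tumour cells, and 0.369 and 0.383 times in macrophages. With edgeR, 6 of the 13 genes were higher in tumour cells than in macrophages (46.2%, against 44.3% of genes of at least 10 CPM) and the other 7 did not pass, led by mt-Cytb (log2 change 0.85 ± 0.05, adjusted p = 3.7e-15). With DESeq2 size factors 2 of the 13 were lower. The filter at 15% mitochondrial UMIs uses these genes.

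In hypoxia-high cells 5 of the 13 (38.5%) were lower and 2 (15.4%) higher with edgeR's TMM, against 20.8% lower and 31.6% higher of genes of at least 10 CPM. With total-count scaling 6 were lower and 1 higher, against 38.1% and 17.8% of those genes. The sum was 0.520 and 0.485 times that of the nuclear members in hypoxia-high cells of the RP-6306 and vehicle libraries, and 0.630 and 0.604 times in hypoxia-low cells, a comparison that does not depend on scaling. mt-Cytb had 3522 and 3169.6 CPM in hypoxia-high cells of the RP-6306 and vehicle libraries, and 4968 and 4584 CPM in hypoxia-low cells (log2 change -0.37 ± 0.03, adjusted p = 2.4e-11, edgeR), and mt-Nd4, mt-Nd2 and mt-Nd1 were lower too. The fifth lower gene, mt-Nd3, was counted at a very low level, and 97.7% of the windows near its 3′ end also occur in a nuclear pseudogene (below). mt-Co1, the catalytic core of complex IV, had 907 and 935 CPM in hypoxia-high cells of the RP-6306 and vehicle libraries, and 765 and 795 CPM in hypoxia-low cells (log2 change 0.38 ± 0.04, adjusted p = 5.3e-09, edgeR), and was higher under both scalings, while mt-Co3 was higher with TMM and did not pass with total counts. In G2/M-high cells 3 were lower, mt-Co3 (-0.41), mt-Co1 (-0.36) and mt-Atp6 (-0.14), and the other 10 did not pass, against 31.4% lower and 35.5% higher of genes of at least 10 CPM. The ratio of mitochondrial to nuclear sums was 0.545 and 0.512 in G2/M-high and 0.596 and 0.564 in G2/M-low cells.

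Several mitochondrial genes have copies in the nuclear genome, and the part of these copies in the measured levels was not tested. For 6 of the 13 (mt-Atp6, mt-Co1, mt-Co2, mt-Co3, mt-Nd3 and mt-Nd4l), at least 90% of the 90-base windows in the last 400 bases were identical to an annotated pseudogene on chromosome 1, and 6 had no copied window. Reads of such windows cannot be told apart from reads of the copy. Only annotated transcripts were searched, so a copy outside them would not be seen. mt-Nd3 stood at 1.9 CPM in RP-6306 and 2.05 CPM in vehicle and mt-Co2 at 11.4 CPM in RP-6306 and 13.2 CPM in vehicle, while mt-Nd1 and mt-Nd4, with no copied window, stood at 2684 CPM in RP-6306 and 2763 CPM in vehicle and at 1585 CPM in RP-6306 and 1579 CPM in vehicle. mt-Nd6, also with no copied window, stood at 31.4 CPM in RP-6306 and 39.8 CPM in vehicle. mt-Atp8, likewise with no copied window, stood at 64.4 CPM in RP-6306 and 63.4 CPM in vehicle. The copied mt-Atp6 stood at 57.8 CPM in RP-6306 and 63.2 CPM in vehicle. mt-Co1, with all of its windows copied, stood at 794 CPM in RP-6306 and 839 CPM in vehicle. The copy of mt-Nd3, Gm28438, was counted at 249 CPM in RP-6306 and 210.2 CPM in vehicle tumour cells. Over the 7 genes with under 50% of their windows copied, the ratio of RP-6306 over vehicle tumour cells was 1.04, and without mt-Cytb the other 6 gave 0.993. Among the nuclear members, 11 of 88 matched had any copied window and 6 had at least 20% (Atp5l, Ndufs3, Cox7c, Ndufs5, Atp5h and Atp5o). Reads of the copied windows of those 6 cannot be told apart from reads of the other gene, while reads of their other windows can. For Atp5o the other gene with most matches is a second row of the same symbol. It overlaps the member on chromosome 16 and had 0 UMIs in RP-6306 and 6 UMIs in vehicle tumour cells.

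**Figure D5:**
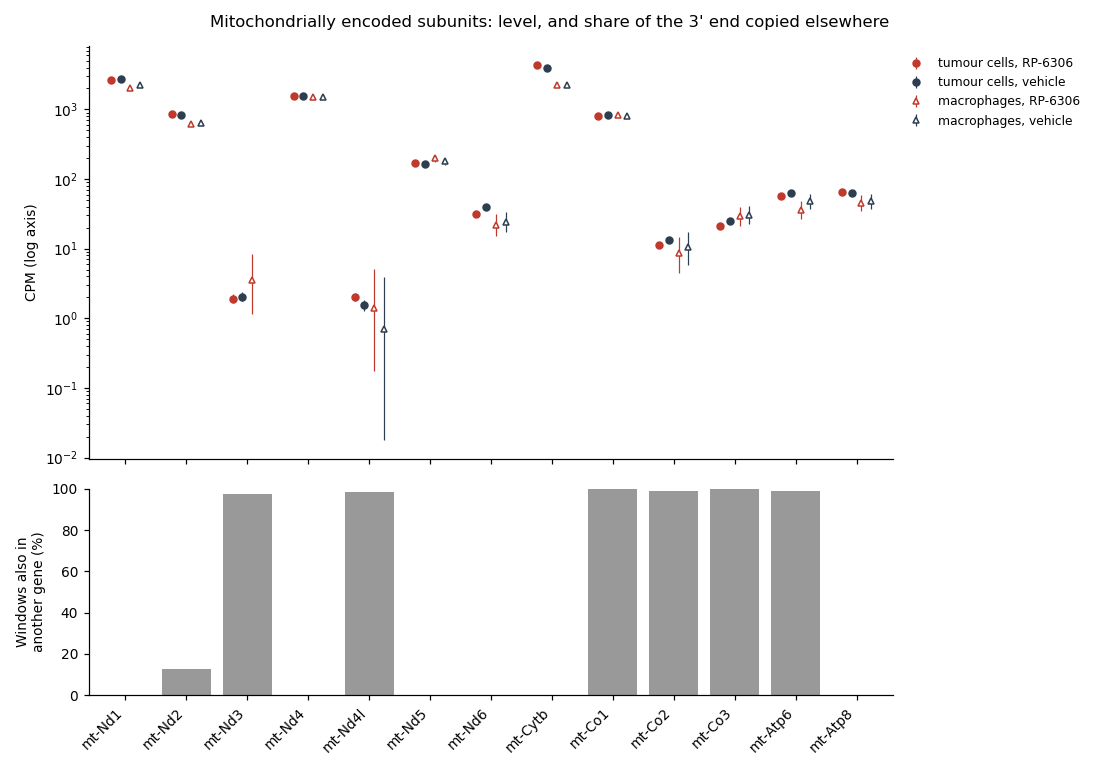
Upper panel, level of the 13 mitochondrially encoded subunits in CPM on a log axis with 95% Poisson intervals, in tumour cells (circles) and macrophages (triangles) of the RP-6306 (red) and vehicle (dark blue) libraries; mt-Nd3 had 0 UMIs in vehicle macrophages and is not drawn there. Lower panel, percent of 90-base windows near the 3′ end found in another gene, which is 97.7% or more for 6 genes, among them mt-Nd3 and mt-Nd4l with the lowest levels.

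Other fixed lists were also set beside the members in tumour cells. Of the 7827 genes of at least 10 CPM and 100 UMIs, 4614 were lower in RP-6306 cells and 3213 higher. The 38 other oxidative phosphorylation factors had 17 genes higher and 21 lower in RP-6306 cells. Chchd2, a regulator of complex IV, and Atpif1, the inhibitor of ATP synthase, were the most abundant, at 785 CPM in RP-6306 and 793 CPM in vehicle and at 465 CPM in RP-6306 and 474 CPM in vehicle. Cycs, cytochrome c, had the highest log2 ratio of that list, 0.11 (0.08 to 0.14), and Lyrm7, a chaperone of the Rieske protein, the lowest, -0.35 (-0.68 to -0.02). Of 13 tricarboxylic acid cycle genes, 11 were lower and 2 higher, with none past 1.2-fold. They summed to 1165 CPM in RP-6306 and 1249.6 CPM in vehicle cells, a log2 ratio of -0.10, led by Mdh2 (285 CPM in RP-6306 and 312 CPM in vehicle), and Idh3g had the lowest log2 ratio, -0.24 (-0.30 to -0.18). Among the regulators, Hif1a led at 127 CPM in RP-6306 and 118 CPM in vehicle and Yy1 followed at 83.2 CPM in RP-6306 and 89.9 CPM in vehicle. Nrf1 stood at 22.3 CPM in RP-6306 and 24.7 CPM in vehicle and Gabpa, the DNA-binding part of GABP, at 27.7 CPM in RP-6306 and 24.7 CPM in vehicle. The coactivator Ppargc1b had the lowest ratio, on 78 UMIs in RP-6306 and 113 UMIs in vehicle tumour cells, a log2 ratio of -0.59 (-1.03 to -0.17). Ppargc1a had 27 UMIs in RP-6306 and 33 UMIs in vehicle tumour cells.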

How the data were processed

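Droplet 3′ single-cell RNA-seq of the 2 libraries was deposited as filtered matrices of counts (UMIs per gene and cell), which the authors made with Cell Ranger 7.1.0, per the file headers. Version 2.1.1 and mm10 stand in the submitters' processing notes. The values are not normalised. Cells with 500 genes or more and at most 15% mitochondrial UMIs were kept, 10308 of 10512 for RP-6306 and 9540 of 9686 for vehicle. Tumour cells had at least 3 Krt8 and Krt18 UMIs and at most 1 UMI of Ptprc, Lyz2, C1qa and Fcer1g. Macrophages had at least 3 Lyz2 UMIs, at most 1 keratin UMI and at least 1 UMI of C1qa, C1qb, C1qc, Csf1r or Adgre1. Cells in neither gate (2178 and 1784) were not used. Scrublet's automatic threshold marked 1 and 0 cells, so it did not work, and removing the highest 8% of scores was tried as an alternative.

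Counts were summed per library and cell group and given as CPM with exact Poisson intervals. Ratios of RP-6306 over vehicle carry exact conditional intervals, for counting error only, and a fold of 1.2 with 100 UMIs was the limit. Cell groups were compared on 4 sums with edgeR 4.0.16 (quasi-likelihood test, TMM, library as block, Benjamini-Hochberg) in R 4.3.3, with DESeq2 1.42.0 as an alternative. The block pairs sums that come from the same library. On simulated counts edgeR recovered 30% of 200 genes changed 2-fold between tumour cells and macrophages, 85% between hypoxia-high and hypoxia-low cells and 81% between G2/M-high and G2/M-low cells. The simulation gave all genes the same fixed dispersion (variance beyond counting error), not estimated from these data. Recovery in the data themselves was thus not measured. Python 3.11.15, scipy 1.17.1 and scanpy 1.11.5 were used. Positions follow GENCODE M21 (GRCm38). Promoter motifs were shortened by 1 or 2 letters after the longer forms had been counted. Genes are named as the most abundant and the most extreme ratio of each complex, the isoforms, those past 1.2-fold, and the 5 largest calls each way of a tested comparison; other genes were picked to show a complex, after their values were seen. The members and lists were chosen with earlier results of these data known.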

Additional observations from a re-analysis of the deposited data

Results flagged for a closer look

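Cox5b, a nuclear subunit of complex IV, differed between the cell groups in its ratio of RP-6306 over vehicle. Its log2 ratio was 0.31 in macrophages, where the counting interval lay above 0, and -0.026 in tumour cells, and the difference between the cell groups was not tested.

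The pseudogene Gm28438, which shares its sequence with mt-Nd3 and enters no comparison, had 22744 UMIs in RP-6306 tumour cells and 18435 UMIs in vehicle tumour cells. In macrophages it had 226 UMIs in the RP-6306 and 214 UMIs in the vehicle library. Its share of reads that belong to mt-Nd3 was not tested.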

How the results depend on the processing

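With 1 library per treatment, treatment and library cannot be told apart, and depth limits the macrophages, where 9 of 89 members had under 100 UMIs. In tumour cells the members' summed log2 ratio of -0.03 was -0.014 with TMM, -0.020 without mitochondrial and ribosomal genes in the total and -0.026 in a stricter gate. The 1 member past 1.2-fold became 0 with per-cell means, that total or a 50 CPM minimum, 2 in the stricter gate and 8 with no CPM minimum. The mitochondrial log2 ratio of 0.047 was 0.063 with TMM, 0.057 with that total, 0.036 with per-cell means, 0.042 without high doublet scores and 0.052 in the stricter gate. In macrophages TMM gave 0.048 for the members, and per-cell means gave 0.012, in place of -0.033, for the mitochondrial genes. Between tumour cells and macrophages, DESeq2 called 6 members higher in place of 14 and 3 mitochondrial genes higher in place of 6. Without a filter on low counts the members' median was -0.054 with 23 higher, and the mitochondrial median 0.42. DESeq2 size factors gave a mitochondrial median of 0.31 and 2 lower. In hypoxia-high cells the total-count scaling, chosen after seeing the data, reversed the members' median to -0.086, with 5 higher and 28 lower. DESeq2 gave 5 higher and 2 lower there, and the fit with no replicate block 5 and 3. In G2/M-high cells the median was 0.15 with DESeq2 size factors, 0.16 with DESeq2, 0.17 without the filter and with total-count scaling, and 0.13 with thinned scores. Lower calls were 4 with DESeq2, 4 without the filter, 5 with total-count scaling and, with no replicate block, 4 beside 30 higher. Leaving out 1 library gave a G2/M median of 0.14 either way and mitochondrial medians between tumour cells and macrophages between 0.34 and 0.40. The cause of these changes was not tested, and the other 83 values kept their direction and their size within the limits used.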
